A study of Mus musculus with 12 samples.

Results

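Rab GTPases are small membrane switches, and the hypothalamus of mice with 0, 1 or 2 mutant copies of Wfs1 expressed most of the family. The genes were taken by symbol from a table of counts per gene: every symbol made of Rab, a number and at most a letter and a further digit, with Rab3a and suffixed repeats of a symbol left out. This gave 56 of the 24020 genes listed, and 42 of the 56 had enough counts to be tested. Wfs1 encodes wolframin, a membrane glycoprotein of the endoplasmic reticulum whose loss causes Wolfram syndrome in humans. The mice were of the Wfs1 mutant line Wfs1tm1Koks and fell into 3 genotypes, wild-type, heterozygous and homozygous for the mutant allele, with 4 libraries each and no further treatment named. Wild-type libraries are numbered 1, 2, 3 and 5, heterozygous libraries 1 to 4 and homozygous libraries 1, 2, 4 and 5. The homozygous labels and columns do not match in full: the label numbered 3 has no column here, and the column numbered 5 has no homozygous label. That column was placed by the genotype in its name, and which labelled mouse it comes from is not known. The labels used here give neither sex nor age.

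A Rab protein is anchored in a membrane by prenyl groups and cycles between a GDP-bound and a GTP-bound form. Exchange factors load GTP, GTPase-activating proteins (GAPs) speed its hydrolysis, and GDP dissociation inhibitors (GDIs) lift the GDP-bound protein off the membrane. In the GTP form a Rab recruits effectors such as tethers, motors and sorting complexes, so each Rab marks a step of traffic: from the endoplasmic reticulum to the Golgi, to the plasma membrane, through endosomes, and on to lysosomes. In the hypothalamus, neurons that secrete peptides carry dense-core vesicles whose release depends on Rab proteins.

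Promoter sequence is shown for called genes, so that the starts of genes that rose and of genes that fell can be set side by side. Of the 42 tested Rab genes, 35 had at least 1 promoter in the RefSeq table for GRCm38.p6 (44 windows of 250 bases before a start). Printed here are the windows of called genes that lie wholly outside the annotated gene body, 3 of genes that rose in homozygous mice (Rab7, Rab8b and Rab39b) and 2 of genes that fell (Rab5c and Rab5a). Capitals mark matches, on either strand, to an E-box (CACGTG), a cyclic AMP response element (CRE, TGACGTCA), the core of an unfolded protein response element (UPRE, TGACGTGG), an endoplasmic reticulum stress element (ERSE) or a GC box (GGGCGG, or CCGCCC on the other strand).
Rab7, chr6:88045271-88045520, minus strand: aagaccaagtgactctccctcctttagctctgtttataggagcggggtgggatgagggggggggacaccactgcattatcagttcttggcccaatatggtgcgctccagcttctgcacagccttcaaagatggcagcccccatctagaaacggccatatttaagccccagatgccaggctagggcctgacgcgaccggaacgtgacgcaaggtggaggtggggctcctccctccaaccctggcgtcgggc
Rab8b, chr9:66919706-66919955, minus strand: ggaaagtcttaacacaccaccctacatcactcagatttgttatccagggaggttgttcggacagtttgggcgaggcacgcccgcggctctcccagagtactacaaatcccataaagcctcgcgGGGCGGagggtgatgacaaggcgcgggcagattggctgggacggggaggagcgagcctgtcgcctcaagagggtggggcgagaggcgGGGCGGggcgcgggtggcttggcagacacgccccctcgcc
Rab39b, chrX:75578232-75578481, minus strand: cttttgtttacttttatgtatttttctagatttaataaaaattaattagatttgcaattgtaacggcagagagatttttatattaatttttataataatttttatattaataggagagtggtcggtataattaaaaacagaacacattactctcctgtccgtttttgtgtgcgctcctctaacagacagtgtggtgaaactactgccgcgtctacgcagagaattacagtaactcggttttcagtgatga
Rab5c, chr11:100738216-100738465, minus strand: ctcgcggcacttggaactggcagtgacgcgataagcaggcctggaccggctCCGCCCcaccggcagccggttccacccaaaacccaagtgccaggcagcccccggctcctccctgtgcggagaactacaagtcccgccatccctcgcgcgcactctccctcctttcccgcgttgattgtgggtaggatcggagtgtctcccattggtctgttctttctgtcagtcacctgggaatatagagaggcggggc
Rab5a, chr17:53478984-53479233, plus strand: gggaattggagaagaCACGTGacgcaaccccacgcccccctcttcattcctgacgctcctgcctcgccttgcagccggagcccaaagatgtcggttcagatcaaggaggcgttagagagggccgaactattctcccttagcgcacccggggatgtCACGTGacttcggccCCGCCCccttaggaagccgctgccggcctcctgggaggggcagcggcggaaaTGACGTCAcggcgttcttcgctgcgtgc

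The printed windows of Rab7 and Rab39b held none of the 5 motifs, that of Rab8b held 2 GC boxes, that of Rab5c held 1, and that of Rab5a held 2 E-boxes, 1 CRE and 1 GC box. Another Rab7 window, not printed because it lies inside the annotated gene body, held 2 GC boxes. None of the matches printed overlaps another. Of the 44 windows, 33 had a GC box (75.0%; 29 of the 35 genes), against 32.7% of the 32851 RefSeq windows of this length. An E-box was found in 4 of the 44 (9.09%; Rab21, Rab23, Rab27a and Rab5a) and in 6.02% of all windows. A CRE was found in 1 of the 44 (2.27%), that of Rab5a, and in 1.55% of all windows. The UPRE core and the ERSE were found in 0 of the 44, and in 0.563% and 0.113% of all windows. A GC box stood before 4 of the 6 higher genes and 6 of the 6 lower genes with a window, and the median GC content of the windows was 63.2% in both sets and 60.8% in the genes not called.

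Libraries held 979394 to 2330872 counts, of which 6113 to 13811 fell on Rab genes. Levels are in CPM, each library's counts scaled to a common total and corrected for composition. Levels of different genes are compared per kilobase of the longest annotated transcript. The ratios of sister genes are the exception and are not corrected for length. Wfs1 levels were 114 to 167 CPM for wild-type, 81.8 to 103 for heterozygous and 14.8 to 20.1 for homozygous libraries, in the order of the labels. Hypothalamic genes (15 of 15 in the table) summed to 1186 to 1608, 1242 to 1885 and 1388 to 1722 CPM. Of the 13 tested, 2 were called higher and 3 lower in homozygous than in wild-type libraries. The ribosomal precursor transcript Rn45s spanned 958 to 1983, 352 to 788 and 85.8 to 352 CPM in the same order. The slope of log2 CPM on transcript GC content was 0.04 to 0.33 per 10 percentage points of GC in wild-type and −0.54 to 0.02 in homozygous libraries. Homozygous replicates 4 and 5 stood apart, with slopes of −0.47 and −0.54. Neuronal markers summed to 4017 to 5164 CPM in wild-type and 5062 to 7327 CPM in homozygous libraries (3 of 6 called higher, 0 lower), and astrocyte markers to 4397 to 5563 and 5230 to 6705 CPM (2 of 8 higher, 2 lower). Oligodendrocyte markers summed to 3502 to 4395 and 2501 to 3955 CPM (3 of 10 higher, 1 lower), and endothelial markers to 139 to 184 and 96.0 to 129 CPM (0 higher and 2 lower of 6 tested). Microglial markers summed to 147 to 176 and 122 to 158 CPM (0 called of 5 tested). Blood genes summed to 14.7 to 35.2 and 4.52 to 20.7 CPM. The 5 pituitary genes summed to 1.46 to 4.76 and 1.13 to 9.89 CPM, with Gh and Prl at 0 in every library. In tissue RNA, fewer cells of a type and less RNA per cell cannot be told apart. The part of the marker levels and of Rn45s in the Rab results was not tested, and refits that take up base composition are given with the counts.

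Homozygous hypothalamus had more RNA of 7 Rab genes and less of 6 than wild-type hypothalamus. The genes that rose were Rab9b, Rab2a, Rab7, Rab11b, Rab39b, Rab21 and Rab8b, by 1.48- to 2.22-fold. The genes that fell were Rab4b, Rab1b, Rab5c, Rab5a, Rab15 and Rab6b, by 1.32- to 2.53-fold. The 13 called genes are 31% of the 42 tested, beside 25.4% of all 10737 genes tested (13.7% higher and 11.6% lower), so the share is near that of genes in general (edgeR quasi-likelihood test, adjusted p under 0.05). A further 29 did not pass. The median log2 fold change was −0.01 over the 42 Rab genes and −0.03 over all genes, with a range of −1.34 to 1.15 among the 42. Groups did not overlap for 15 of the 42, against 23.6% of all genes, and 12 of the 13 called genes were among these 15, the exception being Rab5a. Without homozygous replicates 4 and 5, 8 of the 13 passed (Rab8b, Rab6b, Rab5c, Rab5a and Rab39b did not). In that fit 2 genes too low for the default filter with all 12 libraries, Rab3d and Rab13, passed as well. With each library's GC slope as a covariate, 5 passed: Rab2a, Rab7, Rab11b and Rab9b remained, and Rab18 was added, with a log2 fold change of −0.81.

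Summed over the family, Rab RNA was 5744 ± 329 CPM for wild-type, 5847 ± 242 for heterozygous and 6759 ± 741 for homozygous libraries (mean ± SD, n = 4 each, as for all means given with ±). The ranges of wild-type (5365 to 6152) and homozygous libraries (6039 to 7413) overlapped. Homozygous replicates 4 and 5 held 7383 and 7413 CPM, and homozygous replicates 1 and 2 held 6039 and 6200 CPM. Per kilobase, the highest wild-type levels were those of Rab6b (224 ± 20.4 CPM/kb), Rab2a (202 ± 35.9), Rab6a (171 ± 24.1), Rab1 (116 ± 5.89), Rab3c (104 ± 8.63) and Rab7 (80.2 ± 9.78). Within this order Rab6b and Rab2a, Rab2a and Rab6a, and Rab1 and Rab3c had ranges of mean ± SD that overlapped. In homozygous hypothalamus Rab2a came first (428 ± 91.0 CPM/kb), followed by Rab6a (192 ± 24.4), Rab6b (169.7 ± 20.3) and Rab7 (165 ± 12.9), and the ranges of mean ± SD of the last 3 overlapped. The gene with the highest wild-type level per kilobase, Rab6b, belongs to the endoplasmic reticulum and Golgi group. The early and recycling endosome groups held calls in both directions, as the plot of fold changes by compartment shows.

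**Figure D1:**
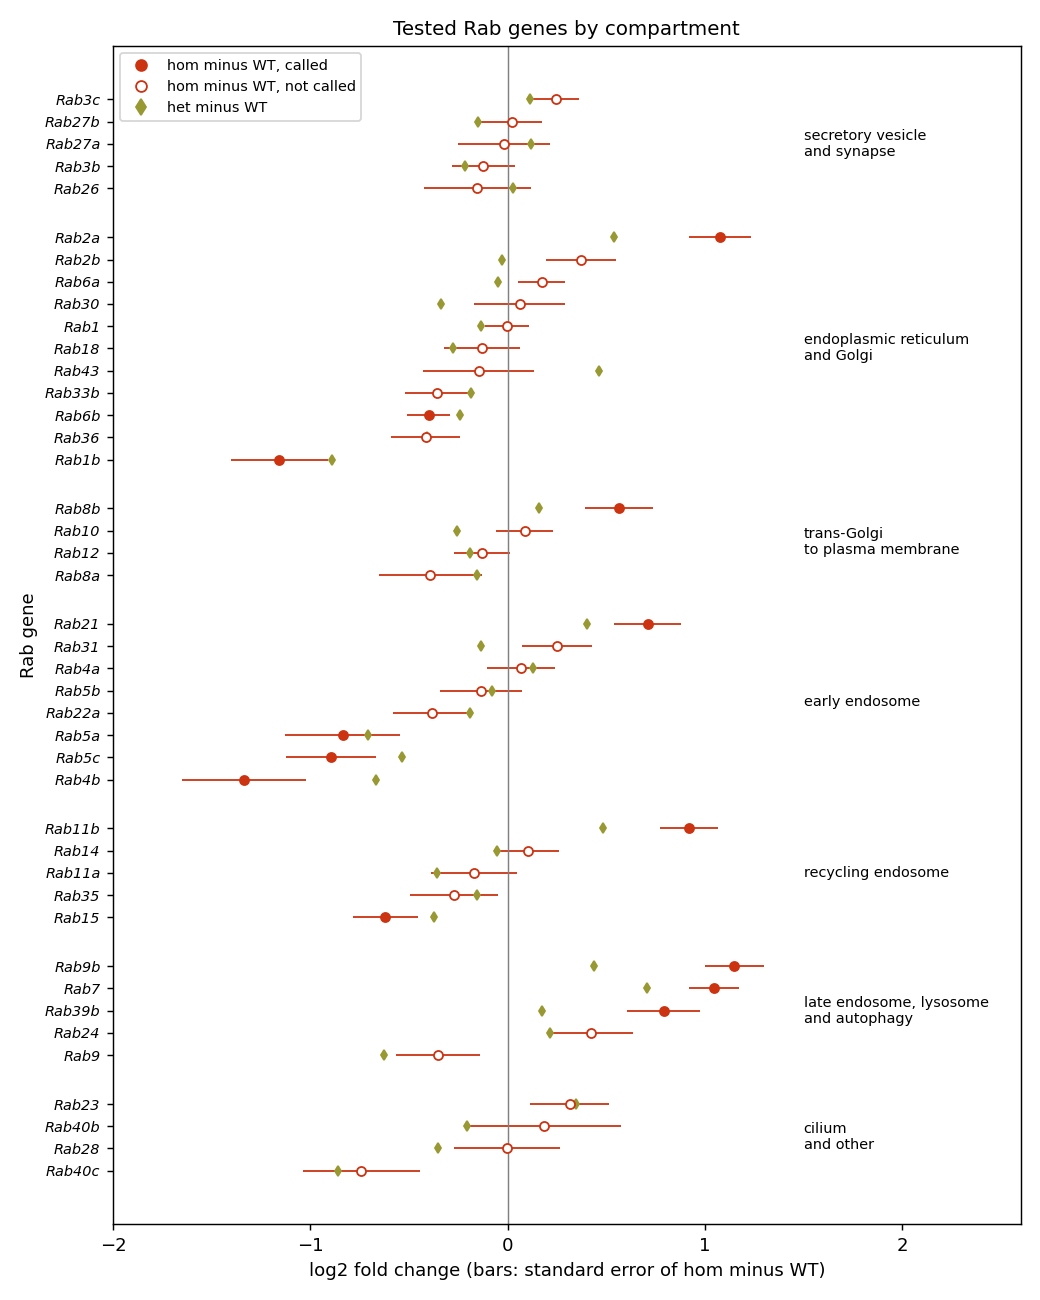
Log2 fold change of the 42 tested Rab genes (x axis), grouped by the compartment of the protein (y axis), with circles and standard errors for homozygous minus wild-type and diamonds for heterozygous minus wild-type. Filled circles are the 13 called genes, and 3 of the 5 genes of the late endosome, lysosome and autophagy group lie to the right at 0.79 to 1.15.

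The Rab genes of late endosomes, lysosomes and autophagy held 3 of the 7 genes that rose: Rab9b, Rab7 and Rab39b, of 5 tested among 9 listed, where 13.7% of all genes were called higher. Rab9b and Rab7 kept their calls without homozygous replicates 4 and 5 and with the GC slope as a covariate, and Rab39b did not. The group's median log2 fold change was 0.79, and its summed level went from 549 CPM in the wild-type mean to 736 CPM in the heterozygous mean and 1057 CPM in the homozygous mean. Rab7 drives the maturation of late endosomes and their fusion with lysosomes, and carries retrograde cargo in axons. Rab7 measured 188, 162, 149 and 193 CPM across wild-type libraries, 253, 249, 333 and 301 CPM across heterozygous ones and 375, 385, 345 and 324 CPM across homozygous ones. All 4 homozygous and all 4 heterozygous libraries exceeded every wild-type library, while the heterozygous and homozygous ranges overlapped. The means were 173 ± 21.1, 284 ± 40.3 and 357 ± 27.8 CPM, a 2.06-fold rise from wild-type to homozygous (log2 fold change 1.04, SE 0.13, edgeR adjusted p = 8.00e-06). Rab7 lies on chromosome 6, 87999106 to 88045270, minus strand (mm10), and 16.8% of the 35-base words (the length of the shorter read) of its longest transcript also occur in the processed copy Rab7-ps1. It was also called in heterozygous mice.

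Rab9b is a close relative of Rab9, which returns mannose 6-phosphate receptors from late endosomes to the trans-Golgi. The wild-type libraries held 186, 149, 149 and 192 CPM of Rab9b, the heterozygous libraries 231, 199, 259 and 232 CPM and the homozygous libraries 308, 299, 447 and 457 CPM. Every homozygous library lay above every heterozygous library, and every heterozygous library above every wild-type one. The means were 169 ± 23.3, 230.2 ± 24.4 and 378 ± 86.0 CPM, a 2.22-fold rise (log2 fold change 1.15, SE 0.15, edgeR adjusted p = 1.41e-05). Homozygous replicates 4 and 5 were the highest, and without them the log2 fold change was 0.84. The gene lies on chromosome X, 136858147 to 136868755, minus strand, and 0.532% of its words are shared with another gene.

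Rab39b, whose human counterpart is an X-linked gene of intellectual disability and early parkinsonism, acts in endosomal sorting and autophagy. For Rab39b the levels were 159.9, 108, 153 and 155 CPM in wild-type, 140.1, 144, 207 and 163 CPM in heterozygous and 182, 188, 302 and 343 CPM in homozygous hypothalamus. Homozygous libraries were above all wild-type libraries but overlapped the heterozygous ones, and replicates 4 and 5 stood well above replicates 1 and 2. The means were 144 ± 24.0, 164 ± 30.7 and 254 ± 81.2 CPM (log2 fold change 0.79, SE 0.19, edgeR adjusted p = 0.00342). Without replicates 4 and 5 the log2 fold change was 0.36 and the call was lost (adjusted p = 0.128). The gene lies on chromosome X, 75572046 to 75578231, minus strand, and 17.0% of its words occur in the antisense transcript Gm15063, whose reads cannot be told apart without strand. The other tested genes of the group did not pass: Rab24, linked to autophagosome formation, had a log2 fold change of 0.42 (adjusted p = 0.155; 51.9% of its words are shared with Prelid1 on the opposite strand) and Rab9 −0.35 (adjusted p = 0.233).

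Along the early secretory route 1 gene rose and 2 fell, of 11 tested among 14 listed, where 25.4% of all genes were called. Rab2a and Rab1b were still called without homozygous replicates 4 and 5, and of the 3 only Rab2a was with the GC slope as a covariate. Rab2a, which rose, organises traffic between the endoplasmic reticulum and the Golgi and takes part in dense-core vesicle and lysosome formation. Rab2a measured 464, 334, 412 and 513 CPM across wild-type libraries, 623, 472, 764 and 659 CPM across heterozygous ones and 847, 686, 975 and 1144 CPM across homozygous ones. The homozygous range lay wholly above the wild-type range, and the heterozygous libraries ran across the gap and overlapped both. The means were 431 ± 76.5, 629 ± 121 and 913 ± 194 CPM, a 2.11-fold rise (log2 fold change 1.08, SE 0.16, edgeR adjusted p = 5.57e-05). Without homozygous replicates 4 and 5 the log2 fold change was 0.83 and the call held. Rab2a lies on chromosome 4, 8535644 to 8607778, plus strand, and 9.05% of its words occur in the pseudogene Gm5865.

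Rab1b, which recruits tethers for vesicles that leave the endoplasmic reticulum, fell. The wild-type libraries held 42.5, 55.2, 51.7 and 37.3 CPM of Rab1b, the heterozygous libraries 25.7, 34.6, 22.0 and 15.1 CPM and the homozygous libraries 24.8, 26.0, 15.7 and 12.4 CPM. Heterozygous and homozygous libraries both lay below all wild-type libraries and overlapped each other. The means were 46.7 ± 8.23, 24.4 ± 8.14 and 19.7 ± 6.73 CPM, a 2.23-fold fall from wild-type to homozygous (log2 fold change −1.16, SE 0.25, edgeR adjusted p = 0.00174). Its near twin Rab1 (Rab1a in current nomenclature) had a log2 fold change of −0.003 (adjusted p = 0.986), with means of 327 ± 16.7, 298 ± 18.7 and 328 ± 39.1 CPM. Rab1b shares 0.213% of its words with that twin. Rab1b lies on chromosome 19, 5099205 to 5107072, minus strand.

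Rab6b is the form of the Golgi Rab6 that is enriched in brain, where it links to dynein through Bicaudal-D adaptors. For Rab6b the levels were 1168, 1246, 1053 and 1028 CPM in wild-type, 961, 1004, 882 and 950.3 CPM in heterozygous and 803, 973, 885 and 738 CPM in homozygous hypothalamus. Homozygous and heterozygous libraries were all below the wild-type ones. The means were 1124 ± 102, 949 ± 50.4 and 849.7 ± 102 CPM, a 1.32-fold fall (log2 fold change −0.40, SE 0.11, edgeR adjusted p = 0.00907), on chromosome 9, 103111787 to 103185276, plus strand. Without homozygous replicates 4 and 5 it was −0.33 and did not pass (adjusted p = 0.0615). Its relative Rab6a, expressed in all tissues, did not pass, at 0.17 (adjusted p = 0.308). Among the others that did not pass, Rab36 had −0.41 (adjusted p = 0.0830), Rab33b, of the Golgi and autophagosome, −0.36 with ranges that did not overlap, Rab2b 0.37 and Rab18, of lipid droplets and the endoplasmic reticulum, −0.13.

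Early endosome genes held 1 call upwards and 3 downwards, of 8 tested among 9 listed, with a median log2 fold change of −0.26, where 13.7% of all genes were called higher and 11.6% lower. The calls of Rab4b and Rab21 held without homozygous replicates 4 and 5, and with the GC slope as a covariate none of the 4 did. Rab5 proteins control the fusion of early endosomes and the uptake of signalling receptors, and 2 of the 3 Rab5 genes fell. Rab5c measured 35.9, 34.3, 35.7 and 34.2 CPM across wild-type libraries, 20.6, 28.4, 16.8 and 29.5 CPM across heterozygous ones and 19.4, 24.7, 13.2 and 14.7 CPM across homozygous ones. Wild-type libraries were close to each other and above all mutant libraries. The means were 35.0 ± 0.929, 23.8 ± 6.12 and 18.0 ± 5.20 CPM, a 1.86-fold fall (log2 fold change −0.90, SE 0.23, edgeR adjusted p = 0.00588), on chromosome 11, 100715009 to 100738215, minus strand. Without homozygous replicates 4 and 5 it did not pass (log2 fold change −0.64, adjusted p = 0.0780). The wild-type libraries held 23.5, 22.8, 20.4 and 11.8 CPM of Rab5a, the heterozygous libraries 12.2, 14.2, 9.52 and 10.5 CPM and the homozygous libraries 6.04, 12.6, 11.5 and 13.5 CPM. Wild-type replicate 5 lay among the mutant libraries, so the ranges overlapped. The 1.78-fold fall (log2 fold change −0.84, SE 0.29, edgeR adjusted p = 0.0370) was lost when wild-type replicate 1, 2 or 3, or homozygous replicate 1 or 4, was left out, with adjusted p up to 0.115. It also missed the threshold by DESeq2 (adjusted p = 0.0509), by limma-voom (0.0782), with a filter at 1 CPM (0.0505) and in a fit of the 2 genotypes (0.0591). Rab5a lies on chromosome 17, 53479234 to 53507680, plus strand, and overlaps Pp2d1 on the opposite strand. Rab5b did not pass (−0.14, adjusted p = 0.668).

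Rab4b, of the fast route by which receptors return from early endosomes to the surface, had the lowest log2 fold change of the 42 tested genes. For Rab4b the levels were 23.5, 29.5, 27.0 and 25.5 CPM in wild-type, 11.6, 17.1, 19.0 and 18.4 CPM in heterozygous and 12.7, 14.8, 8.24 and 1.13 CPM in homozygous hypothalamus. The value of homozygous replicate 5 is 1 count. No homozygous library reached the lowest wild-type one, and neither did any heterozygous library. The means were 26.4 ± 2.54, 16.5 ± 3.40 and 9.23 ± 6.06 CPM, a 2.53-fold fall (log2 fold change −1.34, SE 0.31, edgeR adjusted p = 0.00348), and without homozygous replicates 4 and 5 the log2 fold change was −0.91. The gene lies on chromosome 7, 27168424 to 27178896, minus strand, and 93.1% of its words occur in Gm21983, an overlapping gene model, so how its reads were assigned is uncertain. Rab4a, the form with the highest level per kilobase in this group (29.0 ± 2.79 CPM/kb in wild-type), did not pass (0.07, adjusted p = 0.801).

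Rab21, which binds integrin tails and moves them through endosomes, was the early endosome gene that rose. Rab21 measured 164, 97.0, 147 and 125 CPM across wild-type libraries, 163, 148, 212 and 187 CPM across heterozygous ones and 194, 184, 302 and 199.8 CPM across homozygous ones. Homozygous libraries lay above all wild-type libraries, with replicate 4 far above the other homozygous libraries. The means were 133 ± 29.1, 178 ± 27.9 and 219.7 ± 55.0 CPM (log2 fold change 0.71, SE 0.17, edgeR adjusted p = 0.00414), on chromosome 10, 115287084 to 115315594, minus strand. Rab31 and Rab22a, also of the early endosome, had log2 fold changes of 0.25 and −0.38 and did not pass.

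In the recycling endosome group, Rab11b rose and Rab15 fell, of 5 tested among 7 listed, beside 25.4% of all genes called. Rab11b, the Rab11 form enriched in brain, returns receptors and transporters to the plasma membrane from the slow recycling compartment. The wild-type libraries held 79.2, 85.6, 84.5 and 93.2 CPM of Rab11b, the heterozygous libraries 123, 90.1, 133 and 136 CPM and the homozygous libraries 159, 187, 161 and 137 CPM. Every homozygous library exceeded all heterozygous and all wild-type libraries. The means were 85.6 ± 5.79, 120.5 ± 20.9 and 161 ± 20.7 CPM, a 1.89-fold rise (log2 fold change 0.92, SE 0.15, edgeR adjusted p = 0.000127). The gene lies on chromosome 17, 33742484 to 33760530, minus strand, and 9.63% of its words occur in Rab11b-ps2. Rab11a, which shares its effectors, did not pass (−0.17, adjusted p = 0.610).

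Rab15, a neural regulator of the recycling of transferrin receptors, fell. For Rab15 the levels were 95.3, 95.1, 94.0 and 97.0 CPM in wild-type, 71.3, 78.4, 85.0 and 59.7 CPM in heterozygous and 43.6, 79.0, 59.3 and 64.4 CPM in homozygous hypothalamus. The wild-type libraries were nearly equal, and all mutant libraries lay below them. The means were 95.4 ± 1.22, 73.6 ± 10.8 and 61.6 ± 14.6 CPM (log2 fold change −0.62, SE 0.17, edgeR adjusted p = 0.00858). Rab15 lies on chromosome 12, 76797960 to 76822908, minus strand, and overlaps Fntb, a subunit of protein farnesyltransferase, on the opposite strand. Rab14, with the highest level per kilobase of the group (34.0 ± 2.74 CPM/kb), had 0.11 (adjusted p = 0.659) and Rab35 −0.27.

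Of 4 tested genes for transport from the trans-Golgi to the plasma membrane (5 listed), Rab8b rose, beside 13.7% of all genes called higher. Rab8b works with Rab8a in polarised delivery and at primary cilia. Rab8b measured 57.2, 50.4, 47.4 and 55.3 CPM across wild-type libraries, 59.1, 67.2, 53.5 and 53.8 CPM across heterozygous ones and 64.4, 62.9, 88.1 and 103 CPM across homozygous ones. The homozygous range lay above the wild-type range and overlapped the heterozygous range, with replicates 4 and 5 the highest. The means were 52.6 ± 4.50, 58.4 ± 6.39 and 79.5 ± 19.3 CPM (log2 fold change 0.57, SE 0.17, edgeR adjusted p = 0.0183), on chromosome 9, 66843664 to 66919687, minus strand. This call was lost without wild-type replicate 3, homozygous replicate 4 or homozygous replicate 5 (adjusted p up to 0.0740), and without the last 2 together the log2 fold change was 0.28. Rab8a did not pass (−0.39, adjusted p = 0.282), nor did Rab10 (0.09), the group's most abundant gene per kilobase (53.8 ± 6.49 CPM/kb), or Rab12 (−0.13).

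No gene of the secretory vesicle and synapse group passed, with 5 tested among 7 listed (edgeR; 1 of 5 at an unadjusted p under 0.05, and 0 by DESeq2 and by limma-voom). Rab3d, also of this group, was too low for the default filter with all 12 libraries. Without homozygous replicates 4 and 5 it was called (log2 fold change −2.58, edgeR adjusted p = 0.00879), and its counts are given with the untested genes. Rab3c, a vesicle Rab of neurons and endocrine cells, was the most abundant gene of the group per kilobase. The wild-type libraries held 945, 926, 791 and 836 CPM of Rab3c, the heterozygous libraries 1000.2, 868, 934 and 979.8 CPM and the homozygous libraries 871, 891, 1177 and 1213 CPM. Homozygous replicates 4 and 5 were above every other library, and replicates 1 and 2 lay among the wild-type libraries. Its log2 fold change was 0.25 (SE 0.12, adjusted p = 0.132). Rab3b and the exocytic Rab27a and Rab27b stood at −0.12, −0.02 and 0.02. The last group, cilium and other, also had 0 of 4 tested called among 5 listed (edgeR; 1 of 4 at an unadjusted p under 0.05, 0 by DESeq2 and limma-voom). In it, Rab23, a negative regulator of Hedgehog signalling with the group's highest level per kilobase (9.37 ± 0.805 CPM/kb), had 0.31 and Rab40c −0.74 (adjusted p = 0.0708).

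**Figure D2:**
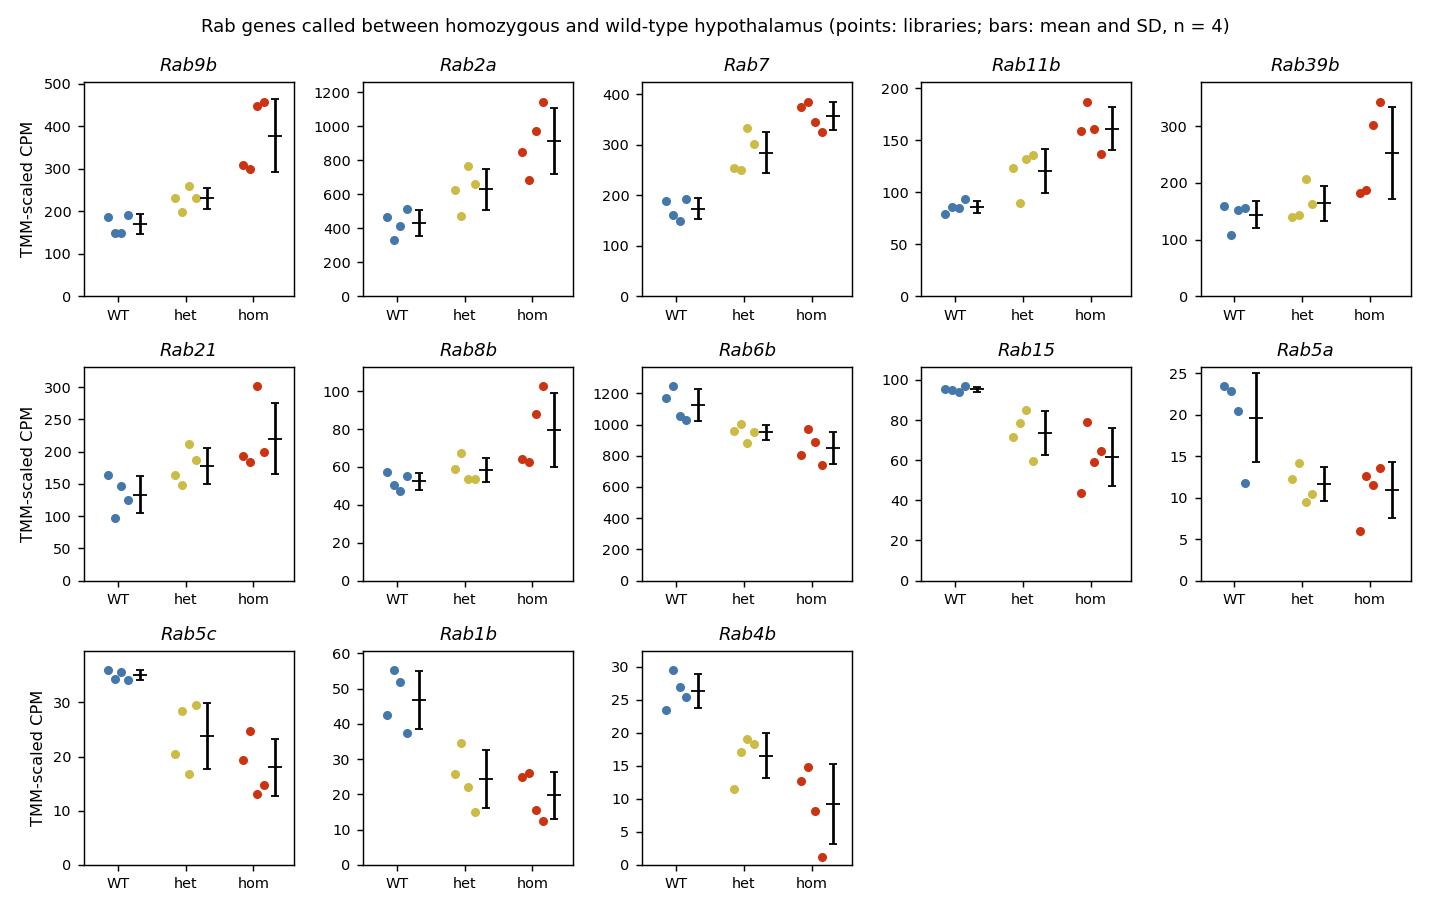
CPM of the 13 called Rab genes in each of the 12 libraries, 1 panel a gene, with the genotype on the x axis, 1 point a library and bars for the mean and SD of 4. The homozygous points lie beyond all wild-type points in every panel other than Rab5a, where a wild-type library of 11.8 CPM falls among the mutant ones.

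Heterozygous mice showed 1 called Rab gene against wild-type, Rab7, which rose. Its means were 173 ± 21.1 CPM and 284 ± 40.3 CPM (log2 fold change 0.71, SE 0.13, edgeR adjusted p = 0.00991). This is 2.38% of the 42 tested, beside 0.596% of all genes (0.512% higher and 0.0838% lower), and 14 of the 42 had an unadjusted p under 0.05. Rab7 lost this call without wild-type replicate 2, wild-type replicate 3, heterozygous replicate 3 or heterozygous replicate 4 (adjusted p up to 0.0808). Rab1b (−0.89, adjusted p = 0.0883) and Rab2a (0.54, adjusted p = 0.110) missed the threshold. Groups did not overlap for 10 of the 42 (9.34% of all genes): Rab23, Rab7, Rab4b, Rab6b, Rab5c, Rab15, Rab40c, Rab1b, Rab9b and Rab9. The median log2 fold change of the 42 was −0.15, against −0.01 for all genes, and 28 of the 42 were negative. Rab40c and Rab9 had their lowest means in heterozygous libraries, at 9.16 ± 3.19 and 17.6 ± 3.97 CPM, against 16.9 ± 2.96 and 26.9 ± 2.33 CPM in wild-type.

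Between homozygous and heterozygous mice 1 Rab gene was called, Rab9b, which was higher in homozygous mice (log2 fold change 0.71, SE 0.15, adjusted p = 0.0166). Over all genes 2.2% were called (1.74% higher and 0.456% lower), and 11 of the 42 Rab genes had an unadjusted p under 0.05. The call was lost when heterozygous replicate 1, 2 or 4 or homozygous replicate 4 or 5 was left out (adjusted p up to 0.109), and without both homozygous replicates 4 and 5 the log2 fold change was 0.41. Groups did not overlap for Rab9b and Rab11b, 2 of the 42, against 9.48% of all genes. The median log2 fold change was 0.13 for the Rab genes and −0.01 for all genes. The 3 comparisons share libraries, and no test set them against each other. The heterozygous mean lay between the other means for all 7 higher and all 6 lower Rab genes and for 8 of the 29 not called. Over all genes this held for 59.9%, and for 96.3% of those called between homozygous and wild-type mice.

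Sister Rab genes differed in their calls: Rab1b, Rab4b, Rab6b and Rab5c fell while Rab1, Rab4a, Rab6a and Rab5b did not pass. In each of these pairs the transcript of the gene that fell had the higher GC content. It was 58.9% in Rab1b and 42.0% in Rab1, and 57.9% in Rab4b and 53.7% in Rab4a. It was 51.4% in Rab6b and 44.6% in Rab6a, and 54.7% in Rab5c and 49.1% in Rab5b. With each library corrected for its GC trend, Rab1 was also called lower (−0.28, adjusted p = 0.0460) and Rab6b was not called. With the GC slope as a covariate Rab1b, Rab4b, Rab6b and Rab5c all lost their calls. The part of base composition in these differences was not tested. Of 13 pairs of sister genes with both members tested, 6 had log2 count ratios that did not overlap between wild-type and homozygous libraries. No such share was computed for other gene pairs, and 23.6% of single genes did not overlap. The ratio of Rab1 to Rab1b counts had a geometric mean of 7.09 for wild-type, 12.8 for heterozygous and 17.3 for homozygous libraries. Rab2a to Rab2b went from 6.20 to 9.16 and 9.998, though 68.5% of the words of Rab2b are shared with Gm43766 on the opposite strand. Rab4a to Rab4b went from 1.56 to 2.77 and 6.54, with log2 ratios of 0.60 to 0.70 in wild-type and 1.67 to 5.29 in homozygous libraries, the highest resting on 1 Rab4b count. Rab6a stood at 0.486 of Rab6b for wild-type, 0.558 for heterozygous and 0.727 for homozygous libraries. Rab5b to Rab5c was 0.833, 1.19 and 1.53. Rab9 to Rab9b went from 0.160 to 0.0756 and 0.0571. For Rab11a to Rab11b (0.875, 0.491 and 0.427) and Rab8a to Rab8b (0.517, 0.420 and 0.227) the wild-type and homozygous ranges overlapped. These ratios are of counts, not corrected for transcript length, and describe the same data as the fold changes, and the difference within a pair was not tested.

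**Figure D3:**
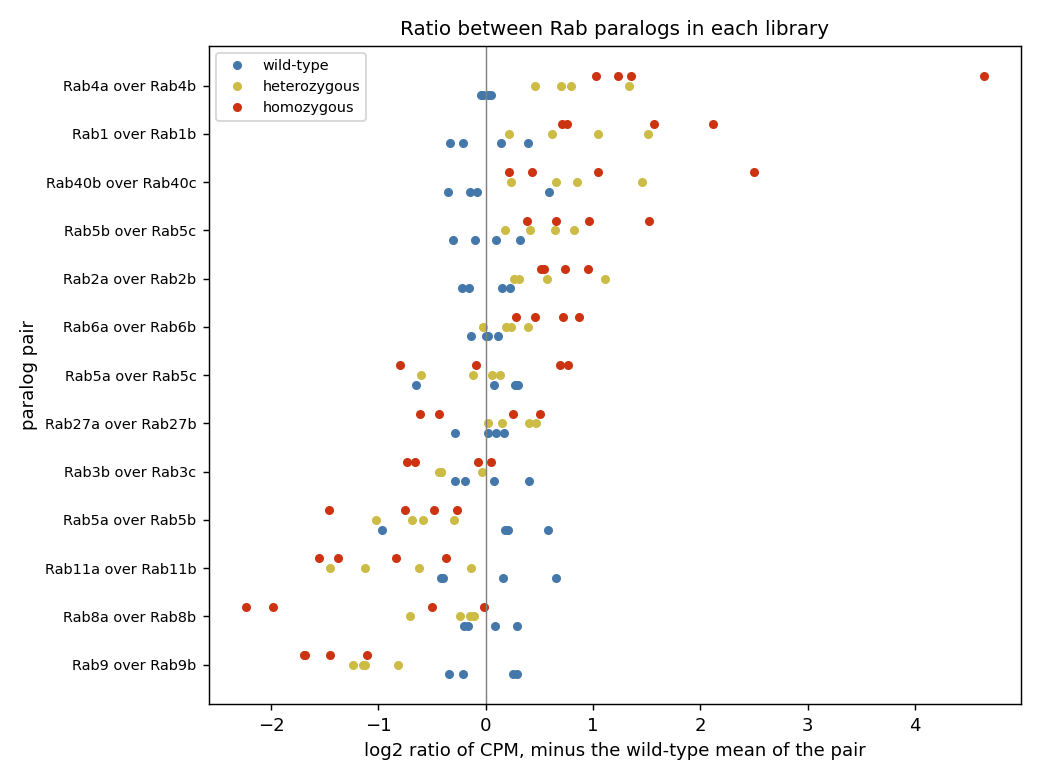
Log2 ratio of the CPM of the 2 members of each of 13 Rab pairs (y axis), minus the pair's wild-type mean (x axis), with 1 point a library coloured by genotype. The homozygous and wild-type points do not overlap for 6 pairs, among them Rab1 over Rab1b, whose geometric mean ratio was 7.09 in wild-type and 17.3 in homozygous libraries.

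Across the 12 libraries the 3 Rab pairs most alike in log2 CPM were Rab2a with Rab9b (Pearson r = 0.963), Rab7 with Rab11b (0.928) and Rab39b with Rab9b (0.907). These points share genotype, library depth and base composition, so the values are descriptions only. Rab7 and Rab11b did not have their highest levels in homozygous replicates 4 and 5, whereas Rab9b, Rab2a, Rab39b and Rab8b did.

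Direction and transcript base composition went together among the Rab genes. Transcripts that rose had 40.0% to 48.7% GC (median 42.7%), those that fell 46.7% to 58.9% (median 55.0%), and those not called 36.8% to 56.4% (median 47.0%). Across the 42 genes GC content and the log2 fold change had r = −0.51 (rho = −0.51), and across 10620 genes with a transcript r = −0.46 (rho = −0.48). Genes are not independent replicates, and no test was made of either value. Over all genes the medians were 44.4% for those called higher and 54.5% for those called lower. Rab7 (48.7%) and Rab11b (48.1%) have a GC content near the median of all genes, and their log2 fold changes were 1.04 and 0.92 without and 1.07 and 1.01 with the GC slope as a covariate. Rab2a (44.4%) and Rab9b (41.3%) went from 1.08 and 1.15 to 0.56 and 0.60, and both still passed (adjusted p = 0.0365 and 0.00793). With that covariate the 9 other called genes had log2 fold changes of the same sign that did not pass, such as 0.11 for Rab39b and −0.50 for Rab1b. Wild-type and homozygous slopes did not overlap, so a call lost or kept with the covariate cannot separate base composition from genotype. A correction of each library for its own GC trend called 16 Rab genes, 10 of the 13 (not Rab8b, Rab6b and Rab15) and 6 others: Rab33b (−0.47), Rab11a (−0.50), Rab1 (−0.28), Rab18 (−0.48), Rab27b (−0.37) and Rab24 (0.75). Over all 10737 genes tested, that correction called 1335 higher and 951 lower.

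**Figure D4:**
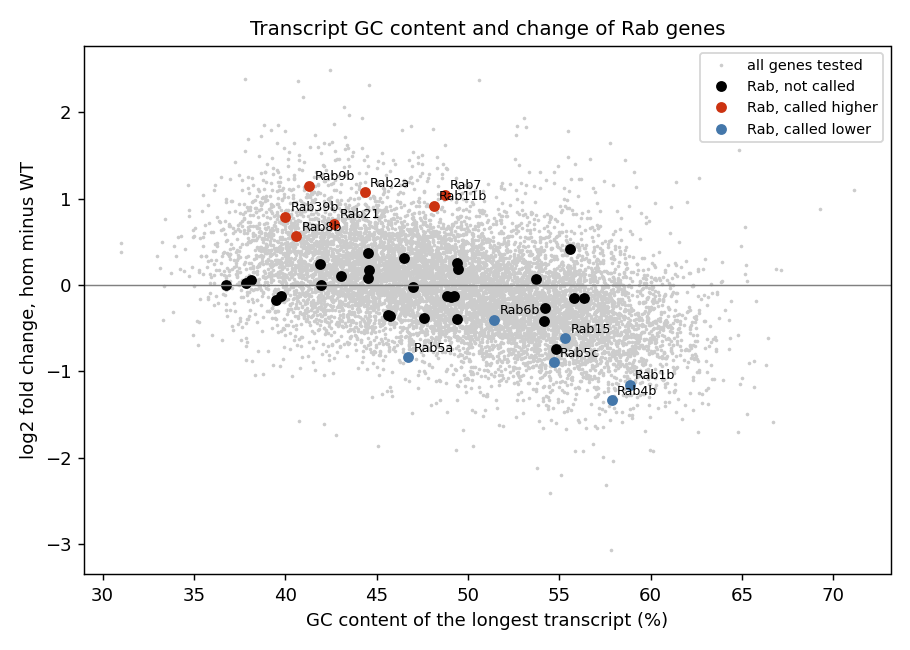
Log2 fold change of homozygous minus wild-type (y axis) against the GC content in percent of the longest transcript (x axis) for the 42 tested Rab genes, with called genes in red (higher) and blue (lower), Rab genes not called in black and all tested genes in grey. Called genes that rose lie at 40.0% to 48.7% GC and those that fell at 46.7% to 58.9%.

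Of 8 genes tested for proteins that deliver and extract Rabs, 3 were higher and 1 was lower in homozygous mice (50%, beside 25.4% of all genes). When homozygous replicates 4 and 5 were left out, 2 of the 8 were called, and with the GC slope as a covariate none was. Gdi2, the widely expressed GDP dissociation inhibitor, rose, with 125 ± 11.9 CPM in wild-type and 203 ± 44.9 CPM in homozygous libraries (log2 fold change 0.69, SE 0.15, adjusted p = 0.00151). The escort proteins Chm and Chml, which present new Rabs for prenylation, rose by 0.48 and 0.70 on the log2 scale (adjusted p = 0.0230 and 0.0358). The transferase subunits Rabggta and Rabggtb had −0.37 (adjusted p = 0.348) and 0.50 (adjusted p = 0.0616). Rabac1, a Golgi protein that binds prenylated Rabs, fell, with 47.7 ± 5.90 CPM in wild-type and 16.0 ± 6.77 CPM in homozygous libraries (log2 fold change −1.52, SE 0.27, adjusted p = 0.000314), and was also lower than in heterozygous mice (log2 fold change −1.07, adjusted p = 0.0375).

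Exchange factors held 1 higher and 8 lower of 33 tested (27.3%; 50 listed), with a median log2 fold change of −0.26. Over all genes tested 13.7% were called higher and 11.6% lower, with a median of −0.03. The balance of directions within the partner lists was not tested. Madd, the exchange factor of Rab3 and Rab27, fell, with 226 ± 37.7 CPM in wild-type and 144 ± 20.8 CPM in homozygous libraries (log2 fold change −0.65, SE 0.14, adjusted p = 0.00153). It was also lower in homozygous than in heterozygous mice (−0.61, adjusted p = 0.0257). Trappc9, of the TRAPPII complex, had −0.92 (adjusted p = 0.00231), Smcr8, a DENN protein of lysosomes, −0.68 (adjusted p = 0.00231), and Dennd5a −0.57 (adjusted p = 0.00264). The 1 that rose was Trappc5 (0.69, adjusted p = 0.0108), a small TRAPP subunit. Among GAPs, 1 was higher and 7 were lower of 31 tested (25.8%; 34 listed), with a median of −0.27. Rabgap1l rose, with 296 ± 46.4 CPM in wild-type and 648 ± 209 CPM in homozygous libraries (log2 fold change 1.12, SE 0.17, adjusted p = 0.000102), and was also higher than in heterozygous mice (0.68, adjusted p = 0.0397). Sgsm1, Sgsm2 and Tbc1d16 fell, at −0.82 (adjusted p = 0.000219), −1.15 (adjusted p = 0.000471) and −0.90 (adjusted p = 0.00664).

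Effectors held 9 higher and 1 lower of 44 tested (22.7%; 55 listed) and a median of 0.13, beside 13.7% higher and 11.6% lower over all genes. Fyco1, which joins Rab7 on late endosomes and autophagosomes to kinesin, rose, with 131 ± 29.0 CPM in wild-type and 258 ± 40.7 CPM in homozygous libraries (log2 fold change 0.97, SE 0.15, adjusted p = 0.000126). Eea1, the early endosome tether bound by Rab5, had 0.83 (adjusted p = 0.000153). Rabep1, which binds Rab4 and Rab5, had 0.76 (adjusted p = 0.000153), and the Golgi tether Gcc2 1.01 (adjusted p = 0.000303). Eea1, Fyco1 and Gcc2 were also higher in homozygous than in heterozygous mice (0.55, 0.62 and 0.69). The 1 that fell was Rab11fip4 (−0.81, adjusted p = 0.0225). Against wild-type, heterozygous mice had 1 called effector, Ehbp1 (0.65, adjusted p = 0.0381). The other 3 lists had 0 called by edgeR in that comparison, with 0 of 8, 3 of 33 and 7 of 31 at an unadjusted p under 0.05. DESeq2 called 0, 1 and 0 of them, and limma-voom 0, 1 and 1. In homozygous mice 25.4% of all genes were called, close to the shares of the exchange factors, GAPs and effectors. Without homozygous replicates 4 and 5, calls came to 5 exchange factors, 3 GAPs and 7 effectors. That fit called 810 genes higher and 534 lower of 11335 tested. With the GC slope as a covariate, calls came to 1, 1 and 2, beside 331 genes higher and 109 lower of 10737 tested.

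The 14 Rab genes that were not tested had at most 19 counts in any library. Rab17 and Rab25, Rabs of epithelial cells, had 0 counts in all 12 libraries, which allows up to 0.165 CPM over their 18198073 counts (counting error only). Rab7l1, Rab19, Rab38, Rab20, Rab39, Rab32, Rab34, Rab37, Rab44 and Rab33a had low counts and no value that passed without the filter. Rab3d, a Rab of secretory granules, had 9, 4, 11 and 13 counts in wild-type libraries, 2, 6, 2 and 3 counts in heterozygous libraries and 1, 3, 1 and 0 counts in homozygous libraries. Fitted without the filter, its log2 fold change was −2.86 (adjusted p = 0.000274). Rab13, a Rab of cell junctions, had 3, 3, 2 and 3, then 8, 4, 8 and 5, and then 12, 19, 6 and 3 counts, and a fitted log2 fold change of 1.69 (adjusted p = 0.0166). Wild-type and homozygous counts did not overlap for Rab3d, and they met at 3 counts for Rab13. A gene this low passes a filter mainly through the group where it is high, so these 2 are kept apart from the 42 tested genes.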

How the data were processed

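Hypothalamus RNA of 12 mice, 4 individuals per genotype by the series' design, was read on a SOLiD 5500xl sequencer in pairs of 75 and 35 bp, after amplification of 50 ng (Ovation RNA-Seq System V2), per the labels' protocols. The growth protocol speaks of 5 hypothalamus animals per genotype. The authors deposited raw read counts per gene symbol, and per the submitters' processing notes the build was mm10. Aligner, counter, annotation and strand: not given in the sources used here. All values were whole numbers, and within-group library pairs differed beyond sampling noise (chi-square per degree of freedom 2.06 to 9.17), so none was counted as a repeat.

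Counts were tested with edgeR 4.0.16 (R 4.3.3): default filter (10737 genes left), TMM scaling (factors 0.908 to 1.08), quasi-likelihood F tests in 1 fit of all 12 libraries, Benjamini-Hochberg adjustment over all genes tested and calls at an adjusted p under 0.05. The code was tested on simulated counts. SE was taken as the size of the log2 fold change over the root of its F statistic. CPM use the TMM factors. Symbols were matched to GENCODE M21 for position, length and GC content (20717 directly, 1880 by an older symbol, 1423 not). Alternatives used DESeq2 1.42.0, limma 3.58.1 (voom with quality weights), other filters and scalings, subsets of libraries and GC corrections. The Rab genes, their compartments and the lists of partners and markers were chosen with earlier results of these data known. Every Rab gene could be named. Of each partner list the text names up to 4 called genes by smallest p and, whatever their p, Gdi2, Chm, Rabggta and Rabggtb, and 1 more gene under this rule is not reported here. Trappc5, Rab11fip4 and Ehbp1 were named after their values were seen.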

Additional observations from a re-analysis of the deposited data

Results flagged for a closer look

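In 39 groups of 4 libraries (the 13 called Rab genes in 3 genotypes), 2 held a library far from the other 3, where chance alone gives about 1 group in 20. Homozygous replicate 4 had 302 CPM of Rab21, against 199.8 CPM in the next library and 184 CPM in the lowest. Wild-type replicate 2 had 108 CPM of Rab39b, against 153 CPM in the next library and 159.9 CPM in the highest. Both genes stayed called between homozygous and wild-type mice when each library was left out in turn, with log2 fold changes of 0.52 to 0.83 for Rab21 and 0.62 to 0.92 for Rab39b.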

How the results depend on the processing

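Rab2a, Rab7, Rab11b and Rab9b were called between homozygous and wild-type mice under every alternative run. Of the values of single genes under alternatives, 286 kept direction and call, 43 kept the direction and lost the call, and 0 reversed. The median log2 fold change of all genes was at most 0.042 in size under any alternative, in any comparison. With the GC slope as a covariate 4 Rab genes were higher and 1 lower, and 440 genes in all were called (75.2% of them higher, against 54.2% of 2723). Without homozygous replicates 4 and 5 together, 1344 genes were called. Both leave fewer degrees of freedom. The GC slope also went with genotype: every wild-type slope (0.04 to 0.33) was above every homozygous slope (−0.54 to 0.02). With that covariate, effects of genotype and of base composition cannot be told apart. The cause of the lost calls was not tested further.

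Heterozygous against wild-type, where 1 Rab gene and 64 genes were called, gave 3 and 280 without a filter, 2 and 222 by DESeq2, 4 and 394 by limma-voom, 5 and 382 in a fit of the 2 genotypes, 3 and 257 with the GC slope, and 2 and 152 with the GC offset. Leaving out single libraries gave 0 to 4 Rab genes and 3 to 218 genes. Homozygous against heterozygous (1 and 236) gave 3 and 727 without a filter, 3 and 429 by DESeq2, 78 genes by limma-voom, 44 in a fit of the 2 genotypes, and 0 and 1 both without homozygous replicates 4 and 5 (6 Rab genes at an unadjusted p under 0.05) and with the GC slope (5). Leaving out single libraries gave 0 to 3 and 6 to 867. The cause of these shifts was not tested.

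Replicate numbers are shared across genotypes, but of 9 pairs with the same number 4 had deviations correlated above 0.1 (r = −0.39 to 0.44 over 7116 genes), so the numbers were not taken to pair libraries, although all 3 pairs of replicate 2 were above it (0.12, 0.17 and 0.44). With the replicate number as a block, 11 of the 13 Rab genes were called between homozygous and wild-type mice (not Rab8b and Rab5a), 3 between heterozygous and wild-type mice, and 0 between homozygous and heterozygous mice, where 15 genes in all passed (7 Rab genes at an unadjusted p under 0.05). Depth limits the least abundant genes: the 14 untested Rab genes had at most 19 counts in a library.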
